A study of Mus musculus with 37 samples.

Results

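The matricellular and myofibroblast genes described here are Postn, Tnc, Thbs1, Spp1, Sparc, Fn1, Lox, Loxl2, Cilp and Lrrc15. They were chosen by name, and all 10 were found, each in 1 row, among the 56748 genes of the deposited expression table. RNA of ventricular tissue from male and female C57BL/6J mice, aged 8 to 10 weeks, was sequenced in 37 libraries. The 5 Naïve mice had anaesthesia alone, with no intubation and no injection. Adr mice were intubated and ventilated, received saline into the left ventricle and then adrenaline by the same route. Arrest mice were handled in the same way but received potassium chloride, which stopped the heart for 8 min before adrenaline and chest compressions. Adr and Arrest each had 4 libraries 0.5, 1, 3 or 7 days later, and the labels call the Adr mice sham. No allele was altered in any group, and the apex, where the needle entered, was discarded. Intubation, ventilation and the needle separate both arms from Naïve, so their part cannot be told apart from that of adrenaline or arrest, and there was no group without adrenaline after injection.

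Matricellular proteins are secreted into the matrix and act on cells through integrins and other receptors more than they bear load. Periostin, tenascin-C, thrombospondin-1, osteopontin and SPARC belong to this class, and in the adult heart they are known to rise where tissue is injured or overloaded. Fibroblasts that turn into myofibroblasts lay down fibronectin and collagen and stiffen them with lysyl oxidases, a program driven in large part by TGF-beta and mechanical tension. Lrrc15 encodes a leucine-rich repeat membrane protein used as a marker of TGF-beta-driven myofibroblasts in other tissues, and Cilp encodes a secreted matrix protein of fibroblasts that binds TGF-beta.

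The libraries held 13.2 to 30.2 M fragments on genes (M, mega). Adr 3 d replicate 3 stood apart, with 9.36% of its fragments on mitochondrial genes against 20.8% to 30.9% in the other 36 libraries, and the calls are therefore given with and without it. The study left out 1 Adr 3-day sample for poor quality, and the labels do not say which. Levels are in FPKM, fragments per kilobase of gene and per M fragments, which the authors had put on a common scale by median ratios, so that a value is not exactly per M fragments of its own library. Differences are log2 fold changes of FPKM + 1, so a gene near 0 shows less than its full change. Cardiomyocyte markers were abundant everywhere, at a summed 3300 FPKM in Adr 3 d replicate 3 and 7076 to 15723 FPKM in the rest. The myofibroblast marker Tagln was near 0 in all libraries, between 0 and 1.52 FPKM. Other markers of activated fibroblasts were not all near 0. Acta2, also a smooth muscle marker, ranged from 9.49 to 124 FPKM and Cthrc1 from 0 to 64.6 FPKM, while Fap was at most 1.86 FPKM. In bulk tissue, fewer cells of a type and less RNA per cell cannot be told apart.

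**Figure D1:**
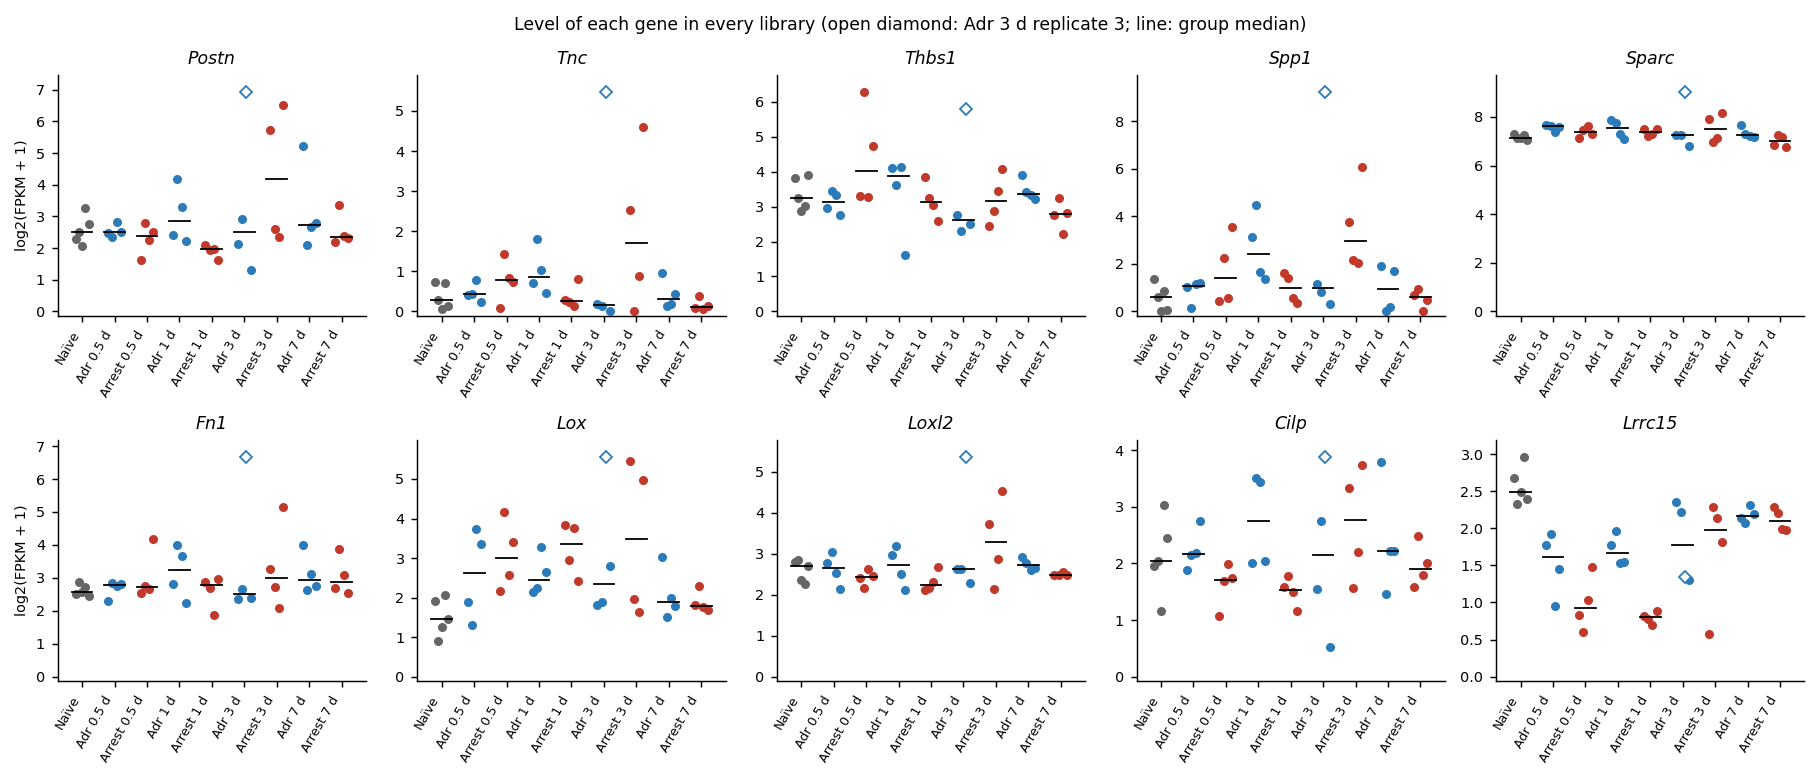
Level of the 10 genes in each of the 37 libraries, as log2(FPKM + 1), by group on the horizontal axis. Points are libraries (grey Naïve, blue Adr, red Arrest), lines are group medians and the open diamond is Adr 3 d replicate 3, which at 594 FPKM of Spp1 and 43.4 FPKM of Tnc lies far above its group. Lrrc15 is the gene whose Arrest 0.5 d and 1 d libraries all sit below Naïve.

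Lrrc15 was the gene that passed the test with all libraries, and it fell. Against Naïve, it passed in Arrest at 0.5 and 1 days, where 3.21% and 7.11% of the 16530 genes tested did (5.51% and 10.4% of 16413 genes without Adr 3 d replicate 3). The 8 comparisons share the Naïve libraries. No other of the 10 genes passed in any of them. In Adr, 0 of 10 passed in the 0.5, 1, 3 and 7 d groups, where 0.188%, 0.69%, 0% and 0% of all genes did, and in Arrest 0 of 10 passed at 3 and 7 days, where 0.139% and 0% did. At an unadjusted p below 0.05 these 6 comparisons held 1, 1, 3, 0, 5 and 0 of the 10 genes. Of all 16530 genes, 2312, 2430, 2295, 1017, 2269 and 852 were at that level. By limma's voom fit on recovered fragments, 0 of the 10 genes were called in each as well. Without Adr 3 d replicate 3, Lrrc15 also fell in Adr 0.5 d and Spp1 rose in Arrest 3 d, where 1.45% and 1.15% of genes were called. That left 0 of 10 in Adr at 1, 3 and 7 days and in Arrest at 7 days, beside 2.54%, 0%, 0% and 0% of all genes.

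**Figure D2:**
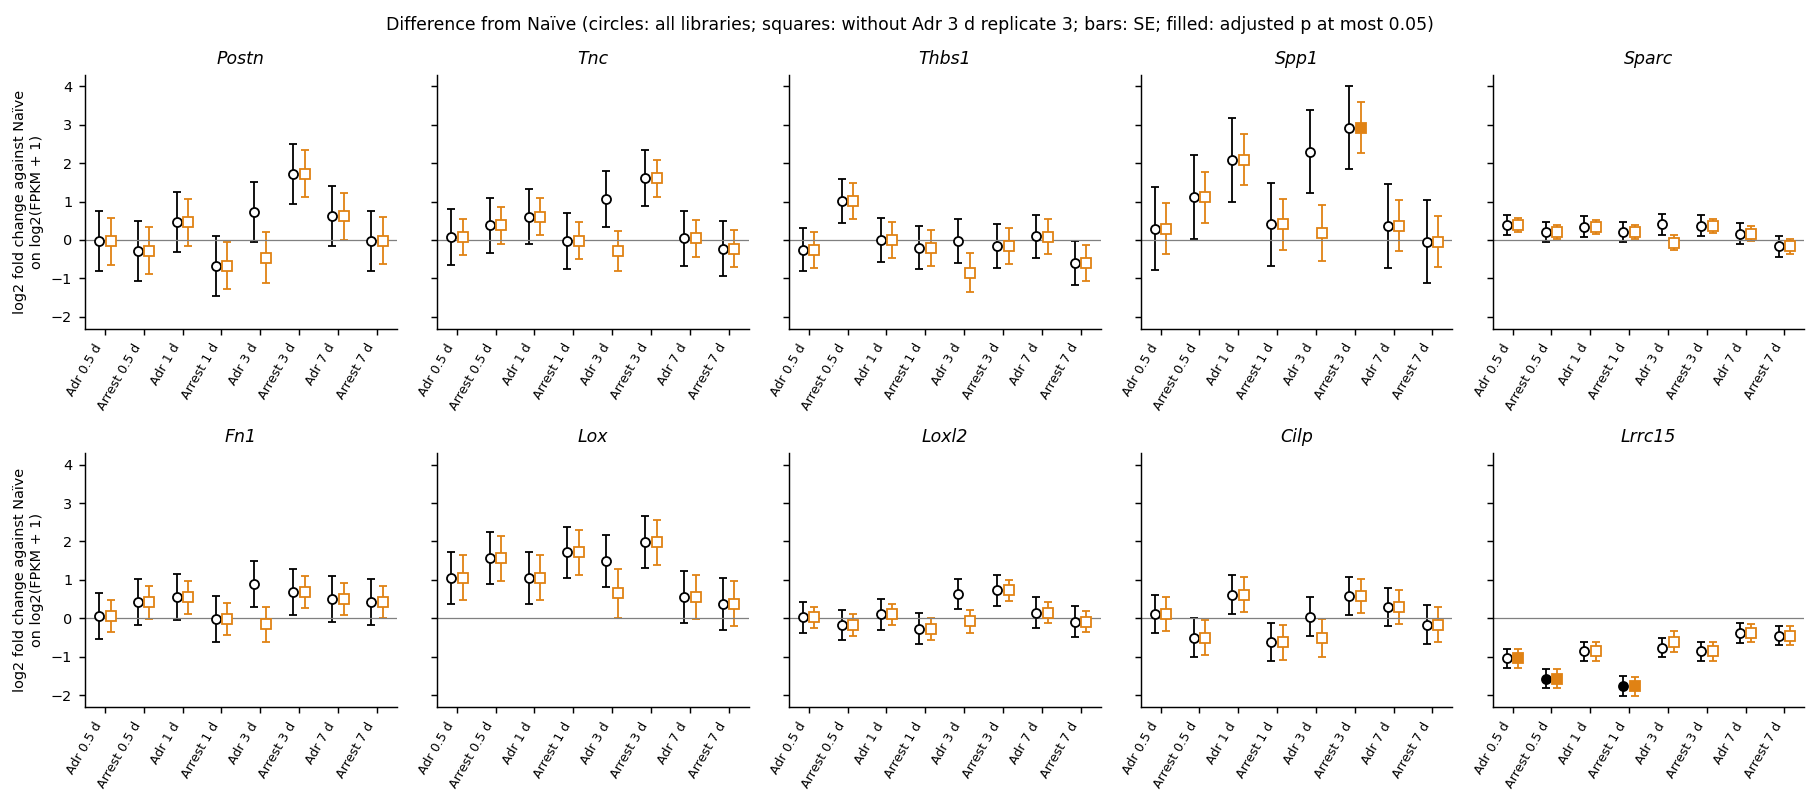
Log2 fold change of each gene against Naïve, on the log2(FPKM + 1) scale, at the 4 times in Adr and Arrest. Circles are the fit with all libraries, squares the fit without Adr 3 d replicate 3, bars are SE, and filled symbols have an adjusted p of at most 0.05 by limma. Filled circles appear for Lrrc15 in Arrest at 0.5 and 1 days, and a filled square for Spp1 at 2.92 in Arrest 3 d.

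Regulatory sequence is given for 4 genes on which the results turn: Lrrc15, which fell, Spp1, which had the largest fold changes, and Postn and Cilp, the pair with the highest Spearman correlation of levels (0.88). Each is the 250 bases before the gene start in RefSeq on GRCm38.p6, on the gene's own strand, and 6 of the 10 genes were in that promoter table (Sparc and Tnc as well). Thbs1, Fn1, Lox and Loxl2 are named only. The windows are chr16:30283255-30283504 (minus strand) for Lrrc15, chr5:104434861-104435110 (plus) for Spp1, chr3:54360857-54361106 (plus) for Postn and chr9:65264930-65265179 (plus) for Cilp. Capitals mark matches on either strand to an AP-1 motif (TGANTCA), a SMAD motif (CAGACA) or a TATA box (TATAAA). A TEAD motif (GGAATG) was also searched and was in none of the 4.
Lrrc15: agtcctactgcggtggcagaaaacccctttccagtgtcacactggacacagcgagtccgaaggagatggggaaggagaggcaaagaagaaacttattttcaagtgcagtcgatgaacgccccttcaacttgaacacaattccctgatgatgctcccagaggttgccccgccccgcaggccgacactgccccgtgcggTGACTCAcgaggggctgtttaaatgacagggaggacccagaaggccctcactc
Spp1: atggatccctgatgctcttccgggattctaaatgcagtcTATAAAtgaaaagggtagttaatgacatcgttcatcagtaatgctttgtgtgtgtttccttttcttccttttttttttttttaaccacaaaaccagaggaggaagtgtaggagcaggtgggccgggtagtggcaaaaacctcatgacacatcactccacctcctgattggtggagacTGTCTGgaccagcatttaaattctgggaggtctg
Postn: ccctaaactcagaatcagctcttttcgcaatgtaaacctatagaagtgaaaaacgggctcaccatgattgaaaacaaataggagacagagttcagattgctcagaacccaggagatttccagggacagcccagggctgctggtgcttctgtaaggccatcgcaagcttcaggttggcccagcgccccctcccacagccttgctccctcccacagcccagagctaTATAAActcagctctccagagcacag
Cilp: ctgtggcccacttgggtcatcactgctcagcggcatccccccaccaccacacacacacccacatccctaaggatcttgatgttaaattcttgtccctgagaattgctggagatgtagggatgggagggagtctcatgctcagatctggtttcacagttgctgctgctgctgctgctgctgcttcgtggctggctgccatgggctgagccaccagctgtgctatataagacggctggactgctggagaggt
The Lrrc15 window held 1 AP-1 match, whose first base lies at position -53 from the gene start, and 6.75% of 32851 windows of the same length held that motif. In Spp1, the TATA match began at -211 and the SMAD match at -34, and the Postn TATA match began at -26. A TATA match was in 12.4% of all windows, a SMAD match in 17.1% and a TEAD match in 12.6%, and no matches overlapped. These are matches of letters and not measured binding sites.

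Lrrc15 (ENSMUSG00000052316) was highest in uninjured hearts. The table's coordinates, whose build the sources used here do not name, place it at chromosome 16, 30088120 to 30102074, on the minus strand. Naïve libraries held 5.42, 4.03, 4.60, 6.76 and 4.24 FPKM. Arrest 0.5 d libraries held 0.78, 0.51, 1.04 and 1.80 FPKM, and Arrest 1 d libraries 0.76, 0.72, 0.63 and 0.84 FPKM. Neither group overlapped with Naïve, and the 4 Arrest 1 d values had the smallest SD of any group. Here and below, the share of all genes without overlap was not counted, so a lack of overlap only describes the values. The log2 fold change against Naïve was -1.58 (SE 0.25, adjusted p = 0.000996 by limma) at 0.5 days and -1.77 (SE 0.25, adjusted p = 0.000125) at 1 day, in means from 5.01 ± 1.11 (SD, n = 5) down to 1.03 ± 0.55 and 0.74 ± 0.09 FPKM (SD, n = 4 each).

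Lrrc15 was also lower in Adr, to a lesser degree. Adr 0.5 d libraries held 2.43, 2.79, 0.93 and 1.73 FPKM, and Adr 1 d libraries 2.43, 2.89, 1.90 and 1.92 FPKM. Every one of these 8 lay below the lowest Naïve library. At 0.5 days the log2 fold change was -1.04 (SE 0.25), with an adjusted p by limma of 0.0631 with all libraries and 0.0282 without Adr 3 d replicate 3, and -0.86 (SE 0.25) at 1 day, with 0.091 and 0.0539. Between the arms at 1 day, the Arrest libraries lay below all Adr libraries, with a log2 difference of -0.91 (95% interval -1.45 to -0.37), which did not pass after adjustment over all genes (adjusted p = 0.466 by limma). At 0.5 days the arms overlapped.

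Later libraries of both arms had partly returned. Arrest 7 d libraries held 3.89, 3.61, 2.96 and 2.95 FPKM and Adr 7 d libraries 3.42, 3.22, 3.98 and 3.59 FPKM. These still lay below every Naïve library, although the differences of -0.45 and -0.38 did not pass the test (adjusted p = 0.97 and 0.92 by limma). In Arrest, Lrrc15 rose from day 1 to day 7 by a log2 difference of 1.31 (SE 0.26, adjusted p = 0.0105 by limma), the 1 gene of 10 called there, beside 1.89% of all genes (4.02% without Adr 3 d replicate 3, again with Lrrc15 alone). In Adr, 0 of 10 passed between the same days (0.0423% of all genes, or 0.384% without that library), and by voom 0 as well. The call in Arrest rested on Arrest 1 d replicate 3, without which the adjusted p was 0.0501. With the number in each sample's description as a covariate, Lrrc15 missed the threshold by limma for Arrest 1 d against Naïve (adjusted p = 0.057) and for Arrest day 7 against day 1 (adjusted p = 0.064). The numbers of Naïve and Arrest 1 d do not overlap, so between these groups that fit can hardly separate number from group.

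The day-3 libraries of Lrrc15 split. Arrest 3 d held 0.49, 3.86, 3.41 and 2.52 FPKM, and Adr 3 d held 4.09, 3.65, 1.54 and 1.46 FPKM. Arrest 3 d lay below Naïve without overlap and Adr 3 d did not. In the order of group means, Naïve was first at 5.01 FPKM, then Adr 7 d (3.55), Arrest 7 d (3.35), Adr 3 d (2.69, or 3.07 without replicate 3), Arrest 3 d (2.57), Adr 1 d (2.29), Adr 0.5 d (1.97), Arrest 0.5 d (1.03) and Arrest 1 d (0.74). Neighbours in this order overlapped from Adr 7 d downward.

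Lox, the lysyl oxidase that cross-links collagen and elastin, had a higher mean than Naïve in both arms at the early times. Naïve libraries held 2.74, 0.88, 1.37, 3.19 and 1.74 FPKM. Arrest 0.5 d held 3.51, 17.1, 4.94 and 9.63 FPKM, and Arrest 1 d 13.2, 6.67, 12.6 and 4.31 FPKM. All 8 lay above the highest Naïve library, a separation that was not counted over all genes. At 0.5 days the fold change was 1.56 on the log2 scale (SE 0.67, adjusted p = 0.205 by limma), and at 1 day it was 1.71 (SE 0.67, adjusted p = 0.117), so neither passed. Without Adr 3 d replicate 3 the adjusted p values by limma were 0.111 and 0.0571, and at 1 day Lox passed with sample quality weights or with those 2 groups alone. Adr 1 d held 3.39, 3.76, 8.71 and 5.24 FPKM, also above every Naïve library, where the fold change was 1.06 on the log2 scale (SE 0.67, adjusted p = 0.48 by limma). Adr 0.5 d, at 2.73, 1.46, 12.3 and 9.30 FPKM, overlapped with Naïve. By day 7, Lox was 2.24 to 3.92 FPKM in Arrest and 1.83 to 7.14 FPKM in Adr. Lox lies on chromosome 18 of the table, 52649139 to 52662939, on the minus strand.

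Loxl2 (chromosome 14, 69846517 to 69933283, plus strand), a relative of Lox that acts on collagen of basement membranes and fibrous matrix, was level outside day 3. It ranged from 3.30 to 8.19 FPKM over all libraries of Naïve and of the 0.5, 1 and 7 day groups. On day 3 it reached 12.3 FPKM in Arrest replicate 1, 22.0 FPKM in Arrest replicate 4 and 39.9 FPKM in Adr replicate 3. The other 5 day-3 libraries held 3.44 to 6.28 FPKM. Its log2 fold change in Arrest 3 d was 0.72 (SE 0.40, adjusted p = 0.43 by limma; 0.174 without Adr 3 d replicate 3).

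Spp1 encodes osteopontin, a phosphoprotein that binds integrins and CD44 and that activated macrophages make in injured heart. It was nearly silent in Naïve, at 1.59, 0.50, 0, 0.80 and 0.05 FPKM, where 0 fragments allow up to 0.139 FPKM (3 fragments, counting error only). Arrest 3 d held 12.3, 3.50, 3.12 and 66.2 FPKM. All 4 exceeded the highest Naïve library. The log2 fold change was 2.92 (SE 1.09, adjusted p = 0.209 by limma) with all libraries, and Spp1 passed without Adr 3 d replicate 3, with the same fold change (SE 0.66, adjusted p = 0.0286). Leaving out Arrest 3 d replicate 1 or 4 as well ended that call.

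Spp1 was also above every Naïve library in Adr 1 d. Those libraries held 7.76, 21.5, 2.18 and 1.60 FPKM, with a log2 fold change of 2.08 (adjusted p = 0.37 by limma, and 0.0851 without Adr 3 d replicate 3). Replicate 4 exceeded the highest Naïve library by little. Arrest 0.5 d held 0.35, 3.70, 0.47 and 10.8 FPKM and Arrest 1 d 2.04, 1.65, 0.47 and 0.29 FPKM. Adr 0.5 d (0.12 to 1.26 FPKM), Adr 7 d (0 to 2.71 FPKM) and Arrest 7 d (0 to 0.92 FPKM) overlapped with Naïve. Adr 3 d was 1.24, 0.76 and 0.24 FPKM apart from the 594 FPKM of replicate 3, so its group mean of 149 ± 297 FPKM (SD, n = 4) came down to 0.75 ± 0.50 FPKM (n = 3) without it. On the table Spp1 is at chromosome 5, 104582984 to 104588916, on the plus strand.

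Postn (chromosome 3, 54268530 to 54298458, plus strand), which encodes periostin, the classic marker of activated cardiac fibroblasts, was low in most libraries and very high in a few. Naïve held 3.86, 4.70, 3.17, 8.59 and 5.81 FPKM. Arrest 3 d held 51.6, 5.11, 4.10 and 90.6 FPKM. Replicates 1 and 4 were high and replicates 2 and 3 lay inside the Naïve range. Its difference of 1.72 on the log2 scale (SE 0.78) did not pass (adjusted p = 0.317 by limma; 0.141 without Adr 3 d replicate 3). Adr 3 d held 3.40, 6.48, 120.5 and 1.45 FPKM, with a group mean of 33.0 ± 58.4 FPKM (SD, n = 4) that fell to 3.78 ± 2.54 FPKM (n = 3) without replicate 3. Adr 7 d held 36.2, 3.28, 5.36 and 5.92 FPKM, high in replicate 1 alone. Arrest 1 d libraries, at 3.23, 2.86, 2.94 and 2.07 FPKM, all lay below the Adr 1 d libraries (4.38, 17.3, 8.82 and 3.66 FPKM), a log2 difference of -1.13 (95% interval -2.80 to 0.54, adjusted p = 0.85 by limma).

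Cilp (chromosome 9, 65172462 to 65187887, plus strand) followed the same libraries as Postn over a smaller range. Naïve held 2.90, 3.14, 1.23, 7.16 and 4.49 FPKM. Its high values were 13.7 FPKM in Adr 3 d replicate 3, 12.9 FPKM in Adr 7 d replicate 1, 12.3 FPKM in Arrest 3 d replicate 4 and 10.3 FPKM in Adr 1 d replicate 2. Arrest 1 d held 1.99, 2.45, 1.82 and 1.23 FPKM, all below the Adr 1 d values of 3.01, 10.3, 9.89 and 3.12 FPKM. The log2 difference between the arms was -1.24 (95% interval -2.32 to -0.16), which did not pass after adjustment (adjusted p = 0.725 by limma).

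Tnc (chromosome 4, 63878022 to 63965252, minus strand) encodes tenascin-C, a large glycoprotein of remodelling matrix that is sparse in healthy adult myocardium. It was at or below 0.66 FPKM in all 5 Naïve libraries. On day 3 it reached 43.4 FPKM in Adr replicate 3, 23.3 FPKM in Arrest replicate 4 and 4.78 FPKM in Arrest replicate 1. No fragments were counted in Arrest 3 d replicate 2 and Adr 3 d replicate 4, where 3 fragments would have been 0.0259 and 0.0154 FPKM. Arrest 3 d overlapped with Naïve, and its log2 fold change was 1.61 (SE 0.72, adjusted p = 0.311 by limma; 0.0814 without Adr 3 d replicate 3). Outside day 3 the highest values were 2.52 FPKM in Adr 1 d replicate 2 and 1.68 FPKM in Arrest 0.5 d replicate 2.

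Fn1 (chromosome 1, 71624679 to 71692359, minus strand), which encodes fibronectin, the scaffold on which collagen is first laid, ranged from 4.43 to 6.33 FPKM in Naïve. It stood at 99.9 FPKM in Adr 3 d replicate 3 and 34.3 FPKM in Arrest 3 d replicate 4, with 3.27, 5.59 and 8.61 FPKM in the other Arrest 3 d libraries. Single libraries were also high at other times, with 17.2 FPKM in Arrest 0.5 d replicate 4, 15.0 FPKM in Adr 7 d replicate 1 and 13.8 FPKM in Arrest 7 d replicate 2. All 8 groups overlapped with Naïve, and no difference passed, the largest log2 fold change being 0.89 (SE 0.60, adjusted p = 0.52 by limma) in Adr 3 d and -0.16 there without replicate 3.

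Thbs1 (chromosome 2, 117942357 to 117957614, plus strand), which encodes thrombospondin-1, an activator of latent TGF-beta made by platelets and many stromal cells, had its high value at 0.5 days. Arrest 0.5 d held 8.79, 76.8, 8.64 and 25.6 FPKM against 6.40 to 13.9 FPKM in Naïve. Replicates 1 and 3 lay inside the Naïve range. On the log2 scale the change was 1.02 (SE 0.57, adjusted p = 0.35 by limma), and against Adr 0.5 d (5.79 to 9.89 FPKM) the difference was 1.27 (95% interval 0.05 to 2.49, adjusted p = 1). Unlike the other secreted genes, Thbs1 was not high in Arrest 3 d replicate 1 (4.46 FPKM), and it was 15.8 FPKM in replicate 4 and 54.7 FPKM in Adr 3 d replicate 3.

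Sparc (chromosome 11, 55285326 to 55314009, minus strand), which encodes a collagen-binding glycoprotein of the basement membrane, was the most abundant of the 10 genes on the FPKM scale, with a mean of 175 FPKM over the 37 libraries. Naïve libraries held 158, 140.5, 138, 153 and 132 FPKM. Adr 0.5 d held 200.1, 199, 165 and 193 FPKM, all above Naïve. A difference of 0.39 on the log2 scale did not pass (SE 0.27, adjusted p = 0.55 by limma; 0.294 without Adr 3 d replicate 3). Sparc was 519 FPKM in Adr 3 d replicate 3 and 240.5 and 287 FPKM in Arrest 3 d replicates 1 and 4, against 126 and 139 FPKM in Arrest 3 d replicates 2 and 3.

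**Figure D3:**
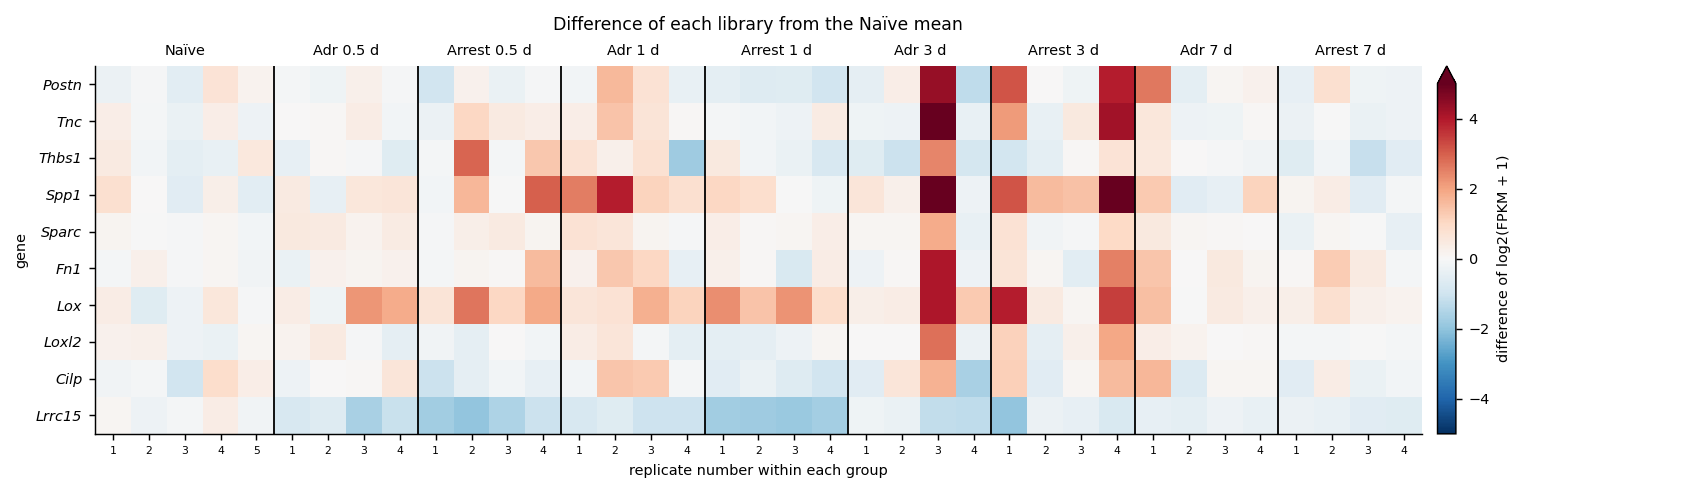
Difference of each library's log2(FPKM + 1) from the Naïve mean, with genes as rows and the 37 libraries as columns, numbered by replicate within group. The colour scale ends at 5, which Spp1 exceeds in Adr 3 d replicate 3 and Arrest 3 d replicate 4, and Tnc in Adr 3 d replicate 3. Red columns stand at Adr 3 d replicate 3 and Arrest 3 d replicates 1 and 4, and the Lrrc15 row is blue in the early groups.

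Many of the high values of the secreted and cross-linking genes fell in the same libraries. Adr 3 d replicate 3 was among the 5 highest of 37 libraries for 9 of the 10 genes, all except Lrrc15, Arrest 3 d replicate 4 for 8, Adr 1 d replicate 2 for 7 and Arrest 3 d replicate 1 for 6. Relative to the Naïve median, Adr 3 d replicate 3 was 1196-fold higher in Spp1, 191-fold in Tnc, 26.2-fold in Lox, 25.6-fold in Postn, 20.1-fold in Fn1 and 3.70-fold in Sparc. Arrest 3 d replicate 4 was 133-fold higher in Spp1, 103-fold in Tnc and 19.3-fold in Postn. These are ratios of single libraries. Arrest 3 d held 2 high and 2 low libraries for Postn and Lox.

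None of the 10 genes passed the test between Arrest and Adr at any time. Of the 10 genes, 0 were called in Arrest against Adr in the 0.5, 1, 3 and 7 d groups, where 0%, 0%, 0% and 0.00605% of all genes were, and the same held without Adr 3 d replicate 3 (0% at all 4 times) and by voom. At an unadjusted p below 0.05 these comparisons held 1, 2, 0 and 0 of the 10 genes, beside 638, 1090, 888 and 416 of all 16530 genes. Without Adr 3 d replicate 3, the day-3 count at that level was 6 of the 10, beside 928 of all 16413 genes. The log2 differences were 2.73 (95% interval 1.19 to 4.28) for Spp1, 2.19 (0.76 to 3.61) for Postn and 1.89 (0.77 to 3.00) for Tnc. None of these passed after adjustment (adjusted p = 0.572, 0.733 and 0.572 by limma).

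**Figure D4:**
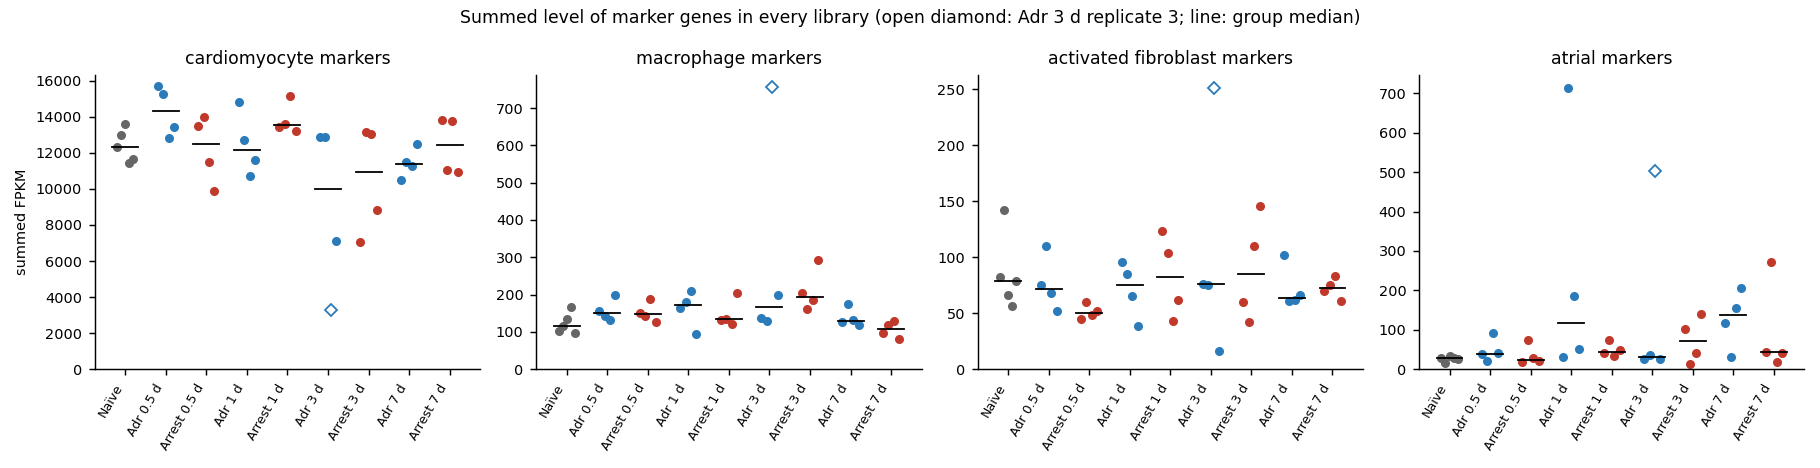
Summed FPKM of marker genes for cardiomyocytes, macrophages, activated fibroblasts and atrial muscle in each library, by group. Points are libraries, lines are group medians and the open diamond is Adr 3 d replicate 3, which is lowest for cardiomyocyte markers (3300 FPKM) and highest for macrophage (756 FPKM) and activated fibroblast markers (252 FPKM).

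Markers of other cells also differed in these libraries, though not every list did and not in each library. Macrophage markers (8 of 8 found) summed to 756 FPKM in Adr 3 d replicate 3, 294 FPKM in Arrest 3 d replicate 4 and 204 FPKM in Arrest 3 d replicate 1, against 80.1 to 211 FPKM in the other 34 libraries and 97.5 to 165 FPKM in Naïve. Activated fibroblast markers (10 of 10) summed to 252, 146 and 59.7 FPKM in the same 3 libraries and to 16.7 to 143 FPKM in the rest. Much of this sum was Acta2, also a smooth muscle marker, at 110, 68.3 and 32.2 FPKM, and up to 124 FPKM in Naïve. Genes of this list did not all follow the sum. Col8a1 was 23.5, 13.9 and 16.1 FPKM in these 3 libraries, against at most 9.26 FPKM in the other 34. Cthrc1 was 64.6, 34.1 and 0 FPKM, against at most 8.69 FPKM. Cardiomyocyte markers (7 of 7) summed to 3300, 8835 and 7076 FPKM, against 7115 to 15723 FPKM in the rest. The 7115 FPKM was in Adr 3 d, whose libraries other than replicate 3 held only 1.45 to 6.48 FPKM of Postn. Platelet markers (6) summed to 293, 118 and 92.1 FPKM, against 33.2 to 90.7 FPKM, nearly all of it from Pf4, which macrophages also make. Neutrophil markers (7) summed to 32.2, 7.47 and 31.7 FPKM against 0 to 32.8 FPKM, with Ly6g at 0 in all of them. Adr 1 d replicate 2 was among the 5 highest libraries for 7 of the 10 genes but was counted here with the other 34. It held 179 FPKM of macrophage, 84.9 FPKM of activated fibroblast, 12691 FPKM of cardiomyocyte and 90.7 FPKM of platelet markers. The part of these cells in the gene levels was not tested.

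Atrial markers were high in some libraries. Atrial markers (6) summed to 713 FPKM in Adr 1 d replicate 2, which was high in Spp1, Postn and Cilp, and to 504 FPKM in Adr 3 d replicate 3, against 16.3 to 33.8 FPKM in Naïve. They summed to 101, 12.6, 40.1 and 139 FPKM in Arrest 3 d replicates 1 to 4, to 118 FPKM in Adr 7 d replicate 1 and to 271 FPKM in Arrest 7 d replicate 2, with Bmp10 at 0 in all libraries. In Arrest 3 d replicates 1 and 4 most of the sum was Nppa, at 95.7 and 129.9 FPKM. Their Sln was 0 and 0.65 FPKM, and their Myl7 was 2.62 and 4.43 FPKM, against 2.58 to 6.17 FPKM in Naïve. In Adr 3 d replicate 3, Nppa was 169 FPKM, Myl7 225 FPKM and Sln 59.6 FPKM. Markers of valve, tendon and cartilage (8) were between 6.39 and 52.0 FPKM, with 49.5 FPKM in Arrest 3 d replicate 1. Mesothelial and epicardial markers (7) were between 11.3 and 183 FPKM. Adr 3 d replicate 3 and Arrest 3 d replicates 1 and 4 lay inside that range, at 28.5 to 76.3 FPKM, as did Adr 1 d replicate 2, at 22.7 FPKM. Endothelial (7, 160 to 303 FPKM), smooth muscle and pericyte (7, 158 to 319 FPKM), skeletal muscle (7, 154 to 728 FPKM) and quiescent fibroblast markers (12, 843 to 1805 FPKM) spanned narrower ranges. Single genes of the quiescent fibroblast list varied more than its sum. Col1a1 was 394, 27.2 and 101 FPKM in Adr 3 d replicate 3 and Arrest 3 d replicates 1 and 4, against 11.5 to 43.2 FPKM in the other 34 libraries. Gsn went the other way in Adr 3 d replicate 3, at 323 FPKM against 412 to 1112 FPKM in those 34. The part of all these cells was not tested either.

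**Figure D5:**
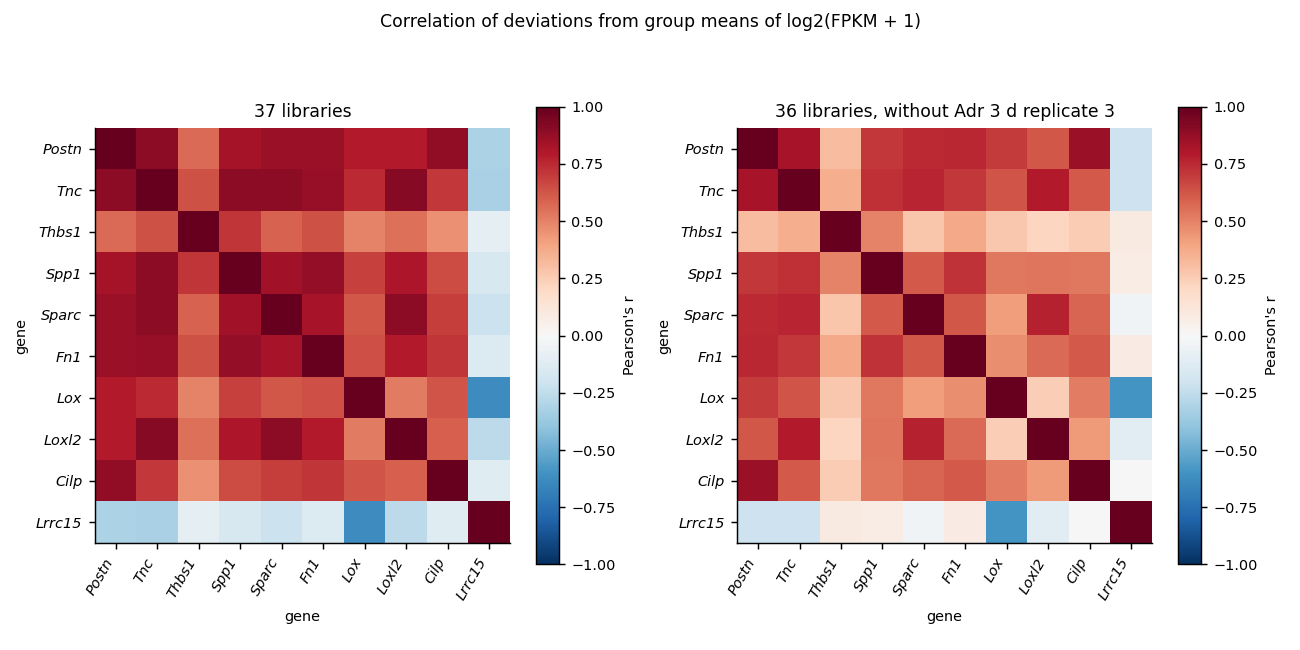
Pearson's r between pairs of the 10 genes after group means of log2(FPKM + 1) were subtracted, over 37 libraries (left) and the 36 without Adr 3 d replicate 3 (right). Red is positive and blue negative. Pairs of the 9 genes other than Lrrc15 are all positive, with a median of 0.73 on the left and 0.60 on the right, where the lowest is 0.21.

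Within groups the genes other than Lrrc15 tended to rise and fall together from library to library, some pairs only weakly. Over 36 libraries the lowest Pearson's r was 0.21 for Thbs1 and Loxl2, then 0.24 for Lox and Loxl2. Spearman's rho of FPKM for Lox and Loxl2 was -0.16 and -0.26 over 37 and 36 libraries. Arrest 3 d replicates 1 and 4, high in several of the genes, are still among the 36. After group means were subtracted, the 36 pairs of the 9 other genes had a median Pearson's r of 0.73 (0.46 to 0.91) over 37 libraries and 0.60 (0.21 to 0.86) over 36. Marker sums also differed between these libraries, so the values are descriptions. Postn and Cilp had r = 0.89 and 0.86, the highest of these pairs over 36 libraries, while over 37 it was Tnc and Loxl2 at 0.91 (0.80 over 36). Lrrc15 had a median r of -0.22 with the others, and -0.04 over 36 libraries. Its largest opposition was to Lox, with r = -0.63 and -0.60 within groups, and Spearman's rho of FPKM of -0.73 and -0.72 over 37 and 36 libraries.

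Among 11549 genes with a mean of at least 1 FPKM, those most like each member over 37 libraries were found by Spearman's rho. Lrrc15 was most like Gm32113 (0.90), Myo10 (0.90), an unconventional myosin, and Ccnd2 (0.89), cyclin D2. Lox was most like Thbs2 (0.88), thrombospondin-2, Pabpc1 (0.88), the poly(A)-binding protein, and Efhd2 (0.86). Postn was most like Cilp (0.88), Ltbp2 (0.84), a latent TGF-beta binding protein family member, and Thbs4 (0.79), and Cilp was most like Postn, Ltbp2 (0.85) and Mfap4 (0.83). Sparc was most like S100a11 (0.84), Anxa2 (0.83) and Col1a2 (0.78), a chain of type I collagen. Loxl2 was most like Maged2 (0.80), Septin9 (0.80) and Lgals3bp (0.76), and Tnc was most like Vim (0.76), vimentin, Anxa5 (0.76) and Flna (0.75), filamin A. Thbs1 was most like Ywhaz (0.73), Cap1 (0.67) and Actb (0.66), Spp1 was most like C1qtnf6 (0.72), Tnc (0.69) and Cd63 (0.66), and Fn1 was most like Pqlc3 (0.67), Plat (0.66), tissue plasminogen activator, and Loxl3 (0.65). Without Adr 3 d replicate 3 each of these rho values moved by less than 0.1.

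The wider matricellular family and the other genes around these proteins were compared with Naïve in the same fit. The shares of all genes called were 3.21% in Arrest 0.5 d and 7.11% in Arrest 1 d, and 5.51% and 10.4% without Adr 3 d replicate 3, and the lists that follow were not tested against them. Of 26 other matricellular genes, 22 were tested, and Sparcl1, a relative of Sparc made by vessels, fell from 101 ± 6.06 FPKM in Naïve (SD, n = 5) to 57.1 ± 9.14 in Arrest 0.5 d (log2 fold change -0.82, adjusted p = 0.0051 by limma) and 59.6 ± 6.44 in Arrest 1 d (-0.75, adjusted p = 0.00483). Its level was 99.5 ± 5.66 FPKM in Arrest 7 d. Ccn3 rose in Arrest 1 d, from 0.98 to 3.41 FPKM (log2 fold change 1.20, adjusted p = 0.0121 by limma). Of the 22, 0 rose and 1 fell in Arrest 0.5 d, and 1 rose and 1 fell in Arrest 1 d (0 and 1, and 2 and 1, without Adr 3 d replicate 3). The list's median log2 fold change was 0.09 in Arrest 1 d and 0.12 in Arrest 0.5 d, beside 0.03 for all genes in each. Of 13 other cross-linking enzymes, Fkbp10, a collagen-folding chaperone, rose in Arrest 0.5 d (4.21 to 10.2 FPKM, log2 fold change 1.19, adjusted p = 0.04 by limma) and in Arrest 1 d (1.20, adjusted p = 0.0234), and the list's medians were 0.35 and 0.14.

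Receptors carry the signals of these proteins into cells. Of 19 integrin and other cell surface receptors tested, 4 fell and 0 rose in Arrest 1 d, and 3 fell and 1 rose in Arrest 0.5 d, with medians of -0.11 and 0.06. Of all genes tested, 7.11% and 3.21% were called there. Without Adr 3 d replicate 3, 4 fell and 1 (Cd36) rose in Arrest 1 d, and 3 fell and 3 rose in Arrest 0.5 d, beside 10.4% and 5.51% of all genes. Itgb6, the partner chain of the integrin that activates latent TGF-beta in epithelia, fell from 3.27 ± 0.76 FPKM (SD, n = 5) to 0.42 ± 0.38 in Arrest 1 d (log2 fold change -1.60, adjusted p = 0.00323 by limma). Itga9, a tenascin-C and osteopontin receptor chain, fell from 10.6 to 5.39 FPKM (-0.87, adjusted p = 0.00593), and Itga8 from 1.33 to 0.42 FPKM (-0.70, adjusted p = 0.008). Sdc4, the fibronectin co-receptor syndecan-4, rose in Arrest 0.5 d from 10.2 to 19.8 FPKM (0.91, adjusted p = 0.0447 by limma).

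TGF-beta induces many matrix genes in fibroblasts. Of 20 ligands, receptors and transducers, 2 fell in Arrest 0.5 d and 1 in Arrest 1 d, the latent TGF-beta binding proteins Ltbp4 (log2 fold change -0.54, adjusted p = 0.023 by limma) and Ltbp1 (-0.48 at 0.5 days and -0.52 at 1 day, adjusted p = 0.0174 and 0.00545), and the list's medians were -0.03 and -0.14. The shares of all genes called were 3.21% and 7.11%. Without Adr 3 d replicate 3, Smad6 also rose in Arrest 1 d (log2 fold change 0.99, adjusted p = 0.0433 by limma), beside 10.4% of all genes called. Of 12 TGF-beta target genes, Timp1, an inhibitor of matrix metalloproteases, rose in Arrest 0.5 d from 2.98 ± 2.68 to 32.1 ± 15.4 FPKM (log2 fold change 3.13, adjusted p = 0.0142 by limma) and to 22.3 ± 8.83 FPKM in Arrest 1 d (2.64, adjusted p = 0.0209), with list medians of 0.17 and 0.06. Of 16 SRF-MRTF, YAP and AP-1 genes tested, Junb, an AP-1 subunit, rose in Arrest 1 d from 8.85 to 47.7 FPKM (2.10, adjusted p = 0.00569 by limma) and Jund rose (0.58, adjusted p = 0.0418), while Vcl, vinculin, fell (-0.59, adjusted p = 0.00699), with a list median of 0.12. Junb also rose in Arrest 0.5 d (1.64, adjusted p = 0.0447 by limma). In Arrest 3 d and 7 d and in all 4 Adr groups, 0 genes of these 6 lists were called with all libraries, beside 0.139% and 0% of all genes in Arrest 3 d and 7 d and 0.188%, 0.69%, 0% and 0% in Adr 0.5, 1, 3 and 7 d. Without Adr 3 d replicate 3, Fkbp10 and Timp1 rose in Adr 0.5 d, Adr 1 d and Arrest 3 d, Ccn3 rose in Adr 1 d, and Vcl fell in Adr 1 d and Arrest 3 d (adjusted p = 0.0124 to 0.0488 by limma), beside 1.45%, 2.54% and 1.15% of all genes in these 3 groups.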

How the data were processed

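FPKM values of all 37 libraries were deposited by the authors in 1 table. Per the study's methods, total RNA was sequenced as paired ends and aligned with HISAT2. The genome build, annotation, counter and strand setting are not given in the sources used here, and the table's gene coordinates do not match GRCm38. FPKM times gene length was a whole multiple of 1 step in every library (100% of values), which gave back the fragments, 13.2 to 30.2 M per library. The median ratio to the mean of all libraries was the same, 1.01, in each, so the deposited FPKM were already on a median-ratio scale.

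Genes had to reach 0.5 FPKM in 4 or more libraries (16530 genes, all 10 members among them, 16413 without Adr 3 d replicate 3). log2(FPKM + 1) was fitted with limma 3.58.1 in R 4.3.3, with 1 mean per group, a trended prior and Benjamini-Hochberg adjustment within each of 14 comparisons, called at an adjusted p of at most 0.05. The study tested counts with another tool; here the deposited FPKM were tested, with voom on recovered fragments as an alternative. Tests are two-sided, and the fit was tested on simulated data. Titles and treatments in the labels gave the groups, and p-values measure the spread between these libraries, which the labels do not tie to separate animals.

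The 10 members, the gene lists and the tests were chosen with earlier results of these data known. From each list of receptors, enzymes and regulators, up to 4 called genes with the largest fold changes against Naïve were named, and for each member the 3 most like genes. Marker lists (fibroblast, cardiomyocyte, endothelial, smooth muscle, macrophage, neutrophil, platelet, mesothelial, atrial, valve and skeletal muscle) were summed per library. Alternatives were other scalings, a pseudocount of 0.1, other filters, covariates, quality weights, a gene length trend, voom on recovered fragments, the compared groups alone, a replicate block and leaving out each library. Figures were drawn with matplotlib 3.10.9.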

Additional observations from a re-analysis of the deposited data

Results flagged for a closer look

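In 16 of the 90 combinations of gene and group, 1 library lay far from its group by Dixon's gap ratio, the distance to the nearest other library over the range of the group. Normally distributed values would give about 1 in 20, or 4.5 of 90, by chance. The ratio was taken on FPKM, which need not be so distributed, and combinations share libraries. The share of such flags over all genes was not counted, so 16 cannot be set against chance. Of the 16, 8 were Adr 3 d replicate 3, highest in its group, with ratios of 0.998 for Spp1, 0.997 for Tnc, 0.987 for Fn1, 0.964 for Loxl2, 0.963 for Thbs1, 0.958 for Postn, 0.919 for Lox and 0.894 for Sparc. They are measures of 1 library and not independent of each other. Adr 7 d replicate 1 was highest in its group for Postn (36.2 FPKM, next 5.92, ratio 0.920) and Sparc (203 FPKM, next 154, ratio 0.833). Arrest 3 d replicate 4 was highest for Spp1 (66.2 FPKM, next 12.3, ratio 0.854). Fn1 was high in Arrest 0.5 d replicate 4 (17.2 FPKM, next 5.76, ratio 0.924) and low in Adr 0.5 d replicate 1 (3.91 FPKM, next 5.80, ratio 0.834). In Arrest 7 d, replicate 2 was highest for Postn (9.28 FPKM, next 4.16, ratio 0.888) and Lox (3.92 FPKM, next 2.49, ratio 0.852), and replicate 3 for Loxl2 (4.91 FPKM, next 4.63, ratio 0.842), where the whole group spanned little. No gene moved one way in every Adr library and the other way in every Arrest library of the same time against the Naïve mean.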

How the results depend on the processing

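No called gene reversed under the alternatives run. In Adr 3 d against Naïve, where 0 genes were called, the median log2 fold change of the 10 genes was 0.68 with all libraries (8 of 10 above 0) and -0.22 without replicate 3 (2 of 10 above 0). Of the 10 genes, 0 were called in Adr 0.5 d against Naïve, but 1 (Lrrc15) after division by fragments counted on genes and 1 with sample quality weights, and 0 to 1 when single libraries were left out, 1 without Adr 3 d replicate 3. In Arrest 1 d against Naïve, 1 was called (Lrrc15), but 0 with the description number as a covariate, which does not overlap between these groups. There were 2 (with Lox) under quality weights or in the 2 compared groups alone. In Arrest 3 d against Naïve, 0 were called, and 1 (Spp1) without Adr 3 d replicate 3. The remaining alternatives for day 3 were chosen after seeing the data. They called 1 gene (Spp1) without Naïve replicate 4 as well, and 1 with the gene length trend removed. Leaving out a further Arrest 3 d library gave 0 (replicate 1 or 4), 6 (replicate 2) or 5 (replicate 3) called genes, over a range of 0 to 6, and 0 to 1 (Tnc, without replicate 2) in Arrest 3 d against Adr 3 d. In Arrest day 7 against day 1, 1 was called (Lrrc15), but 0 with the description number, and 0 to 1 when single libraries were left out, 0 without Arrest 1 d replicate 3. The cause of these changes was not tested. The other 336 checks of counts gave the same count as the main ones, voom on recovered fragments among them. In most comparisons that count was 0, so these checks say little about the size of a difference.

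Same-numbered libraries did not deviate together (correlations of -0.28 to 0.24, 1 pair over 0.1), so the numbers were not taken to pair samples. With a replicate block the log2 fold changes of Lrrc15 were -1.62 in Arrest 0.5 d, -1.81 in Arrest 1 d and 1.31 between days 7 and 1 of Arrest, and the block changed no count of called genes.

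Depth and spread limit the low genes. Spp1 and Tnc rested on a median of 27 and 42 fragments per library, and the SE of Spp1 was 1.09 with all libraries. On the log2(FPKM + 1) scale differences of low genes are compressed: with a pseudocount of 0.1 the Lrrc15 fold change in Arrest 1 d was -2.59 on the log2 scale.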
